A study of Mus musculus with 3 samples.

Results

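The genes described here are 36 mouse genes of the response to low oxygen and of glycolysis, taken by symbol from the 31053 mouse genes of the count matrices. All 36 are protein-coding and were found in each of 3 single-cell libraries. They comprise 18 hypoxia genes (Hif1a, Epas1, Egln1, Egln3, Bhlhe40, Ndufa4l2, Bnip3, Bnip3l, Pdk1, Adm, Ankrd37, Ndrg1, Car9, Hilpda, Ddit4, Ero1l, P4ha1 and P4ha2) and 18 genes of glucose uptake, glycolysis and lactate handling (Slc2a1, Hk1, Hk2, Gpi1, Pfkl, Pfkp, Pfkfb3, Pfkfb4, Aldoa, Aldoc, Tpi1, Gapdh, Pgk1, Pgam1, Eno1, Pkm, Ldha and Slc16a3). Dissociated cells of 3 groups had been captured with the 10x Genomics 3′ kit, version 3. The groups were mouse bladder assembloids, cultured constructs of bladder cells, at 7 days of reconstitution (pool of 3 assembloids), assembloids at 1 day (pool of 3), and whole bladder of wild-type C57BL/6 mice aged 8 to 9 weeks (pool of 8 bladders). With 1 library for each group there were no replicates, so no test between groups could be made, and intervals in brackets are 95% intervals that cover counting error only.

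Cells sense oxygen through prolyl hydroxylases, here Egln1 and Egln3, which mark the alpha subunits of the hypoxia-inducible factor (HIF), encoded by Hif1a and Epas1, for destruction while oxygen is present. When oxygen falls, or when the hydroxylases are otherwise inhibited, the stabilised factor binds a short motif near its target genes and raises glucose uptake, nearly every step of glycolysis and the reduction of pyruvate to lactate, and it lowers the use of pyruvate by mitochondria. Several hydroxylase genes are themselves targets, which gives the pathway feedback. HIF activity is set at the protein level, so the mRNA of Hif1a says little about it. In the bladder wall, the urothelium is a layered epithelium without vessels of its own, supplied from the stroma beneath it.

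The libraries held 9548 barcodes (7-day), 9039 barcodes (1-day) and 8642 barcodes (bladder), with 120301672, 135955678 and 93560608 UMIs in the same order, and 8172, 8258 and 6775 mouse cells remained after filtering. Urothelial, stromal, endothelial and glial cells were assigned by marker UMIs, with no member among the markers. Urothelial marker cells numbered 2111 (7-day), 1428 (1-day) and 2691 (bladder), with median depths of 8336, 4831 and 21314 UMIs, and none of the 18 urothelial markers was at 0 in them in any library. Stromal marker cells numbered 4625, 5404 and 2500, endothelial ones 831, 395 and 1016, and glial ones only 33, 89 and 40, in the same order of libraries. The 7-day library was a mixture by profile: 4345 of its 8172 cells (53.2%) had at most 5% bladder cells among their 30 nearest cells of the other libraries (called assembloid-side here), 3588 (43.9%) had at least 95% (bladder-side), and 239 lay between. The neighbours were found without the 36 genes. Over all classes assembloid-side cells were deeper (median 19932 UMIs, against 3347 UMIs in bladder-side cells), but among urothelial cells they were shallower (7304.5 UMIs, against 8841 UMIs). The 7-day and 1-day libraries shared 114 barcodes, the 7-day and bladder libraries 30, and the 1-day and bladder libraries 21. Most 7-day levels and counts of members are therefore given for all cells and for the assembloid-side cells. Glial and myeloid cells, whose numbers were too low, are an exception. For some members only 1-day and bladder levels, or their ratio, are given. The split was chosen after seeing the data. Levels are UMIs of a gene per 1000000 mouse UMIs (CPM), summed over the cells of a class in a library.

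These genes took a larger share of UMIs in urothelial cells of the assembloids than in urothelial cells of the bladder. A share is not an amount per cell: median depth was 4831 UMIs at 1 day and 21314 UMIs in bladder. The 36 genes together made up 0.690% of urothelial UMIs in 7-day assembloids, 1.51% in 1-day assembloids and 0.383% in bladder. In the assembloid-side cells of the 7-day library the share was 1.52%, and in its bladder-side cells 0.396%. A minimum of 20 CPM in whichever library was higher left 32 members for the comparison of 1-day assembloids with bladder, and 29 of them were at least 2-fold higher at 1 day, 1 was at least 2-fold lower (Hilpda) and 2 differed less (Hif1a and Pkm). Over all genes measured in these cells, 11.0% were at least 2-fold higher and 7.07% at least 2-fold lower. The median log2 ratio was 2.63 over the 32 members and 0.23 over all 5773 genes. Of the 32 members, 12 passed the minimum level at 1 day only and could not have been lower, so the 20 that passed in each library are the fairer count: 17 higher, 1 lower and 2 within 2-fold. Epas1, Car9, Pfkfb3 and Pfkfb4 stayed under 20 CPM in each of these 2 libraries.

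**Figure D1:**
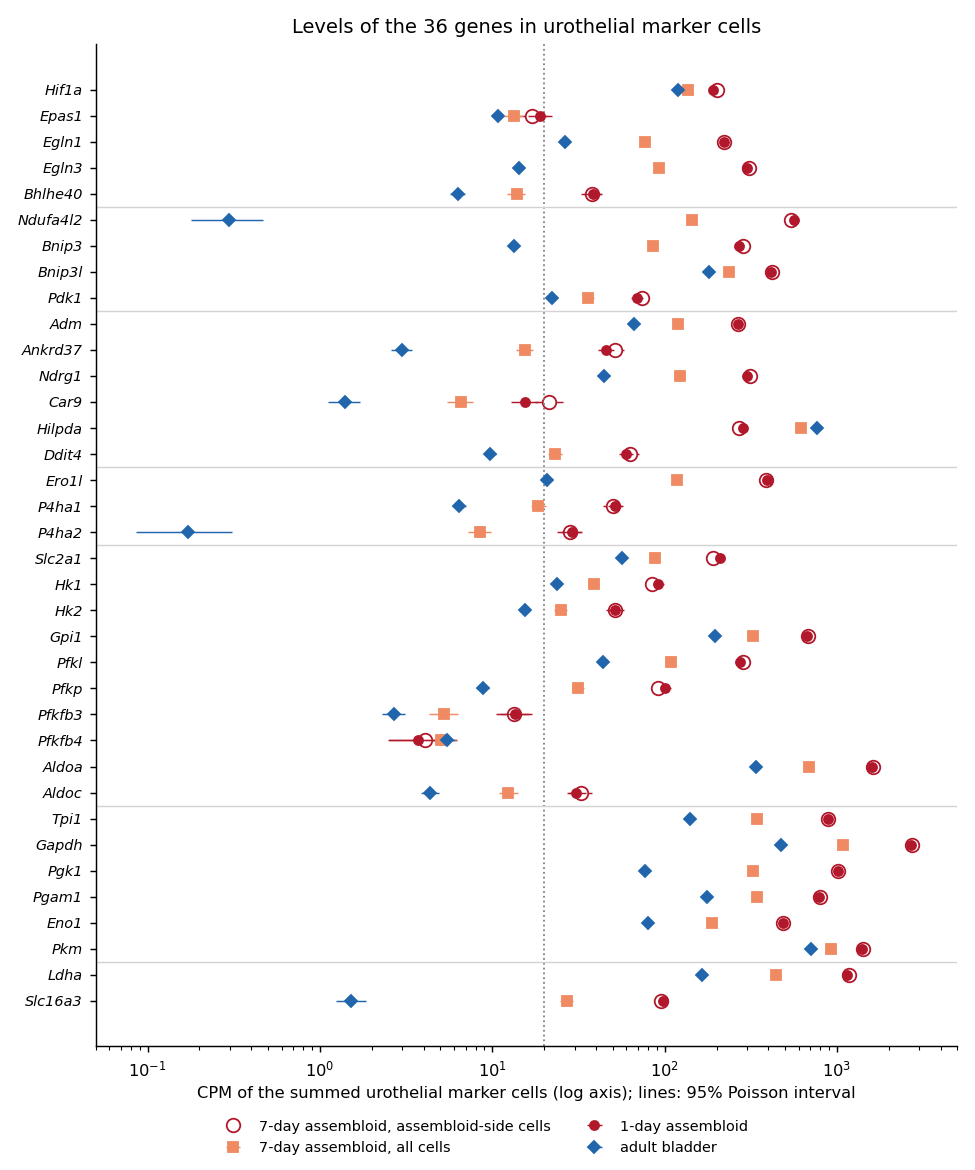
Levels of the 36 genes in urothelial marker cells, in CPM on a log axis, for all 7-day cells (squares), the assembloid-side 7-day cells (open circles), 1-day assembloids (filled circles) and bladder (diamonds), in role groups divided by lines; horizontal lines are 95% Poisson intervals and the dotted line marks 20 CPM. The open and filled circles nearly coincide, and Hilpda is the only gene above 20 CPM whose bladder value lies to the right of its 1-day value.

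Among the HIF subunits and their regulators, the hydroxylases differed and the subunit Hif1a did so by less than 2-fold. Hif1a had 137 CPM in all 7-day and 202 CPM in assembloid-side 7-day cells, 191 CPM in 1-day assembloids and 119 CPM in bladder. Egln3 had 92.4 CPM in all 7-day and 309 CPM in assembloid-side 7-day cells, 302 CPM in 1-day assembloids and 14.4 CPM in bladder, a log2 ratio of 1-day assembloids over bladder of 4.39 [4.28 to 4.51]. Its paralogue Egln1 had 76.7 CPM in all 7-day and 219.7 CPM in assembloid-side 7-day cells, 221 CPM in 1-day assembloids and 26.3 CPM in bladder, with a ratio of 3.07 [2.98 to 3.17]. Both hydroxylase genes were thus higher at 1 day than in bladder, with all 7-day cells in between. Bhlhe40, which encodes a transcriptional repressor of the clock and hypoxia pathways, had 13.8 CPM in all 7-day and 37.8 CPM in assembloid-side 7-day cells, 38.4 CPM in 1-day assembloids and 6.31 CPM in bladder, a log2 ratio of 2.61 [2.38 to 2.82]. In the assembloid-side 7-day cells all of these were close to their 1-day levels.

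Ndufa4l2, a mitochondrial protein related to a respiratory-chain subunit that is induced by HIF and lowers oxygen use, differed most of all 36. It had 144 CPM in all 7-day and 541 CPM in assembloid-side 7-day cells, 565 CPM in 1-day assembloids and 0.298 CPM in bladder, where the bladder value rests on 19 UMIs. Its log2 ratio at 1 day over bladder was 10.85 [10.25 to 11.62]. In mm10 the gene lies at chr10:127514967-127517154, plus strand. After each cell was thinned to 2500 UMIs, 15.6% of 7-day, 50.9% of 1-day and 0.0754% of bladder urothelial cells held a UMI of it (unthinned 20.3%, 59.6% and 0.669%). Endothelial cells of the same libraries, thinned alike, held one in 0.377%, 0.524% and 0.336% of cells, from median depths of 3674, 9259 and 4902 UMIs. Read against that low share, taken here as the background of free RNA in the droplets, the 7-day and 1-day urothelial shares lay far above it and the bladder urothelial share did not. The mitophagy receptor genes were also higher. Bnip3 had 85.6 CPM in all 7-day and 287 CPM in assembloid-side 7-day cells, 271 CPM in 1-day assembloids and 13.3 CPM in bladder (log2 ratio 4.35 [4.24 to 4.47]), and Bnip3l had 238 CPM in all 7-day and 422 CPM in assembloid-side 7-day cells, 413 CPM in 1-day assembloids and 181 CPM in bladder (log2 ratio 1.20 [1.14 to 1.25]). Pdk1, whose kinase shuts pyruvate out of mitochondria by inhibiting pyruvate dehydrogenase, had 35.99 CPM in all 7-day and 73.8 CPM in assembloid-side 7-day cells, 69.3 CPM in 1-day assembloids and 22.3 CPM in bladder, a log2 ratio of 1.63.

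The other hypoxia targets included the only member that went the opposite way. Hilpda, which encodes a lipid-droplet protein that inhibits the lipase of the droplet, had 618 CPM in all 7-day and 272 CPM in assembloid-side 7-day cells, 284 CPM in 1-day assembloids and 770.3 CPM in bladder. At 1 day it was lower than in bladder by a log2 ratio of -1.44 [-1.50 to -1.38]. The bladder-side 7-day cells held 744 CPM. Its weight in the sums was large: Hilpda made up 7.68% of the UMIs of the 18 hypoxia genes in 1-day urothelial cells and 56.4% in bladder ones, both after thinning. Ankrd37, an ankyrin-repeat gene, had 15.5 CPM in all 7-day and 51.6 CPM in assembloid-side 7-day cells, 45.9 CPM in 1-day assembloids and 2.98 CPM in bladder (log2 ratio 3.95 [3.69 to 4.21]). Ndrg1, a stress-responsive gene of cell differentiation, had 123 CPM in all 7-day and 314 CPM in assembloid-side 7-day cells, 302 CPM in 1-day assembloids and 44.2 CPM in bladder, a ratio of 2.77 [2.69 to 2.85]. Ddit4, an inhibitor of the growth kinase complex mTORC1, and Adm, the precursor of the vasodilator peptide adrenomedullin, had log2 ratios of 2.62 and 1.999. Car9, the cell-surface carbonic anhydrase, was low throughout, at 6.54 CPM in all 7-day and 21.4 CPM in assembloid-side 7-day cells, 15.4 CPM in 1-day assembloids and 1.39 CPM in bladder.

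Genes of oxidative folding and collagen hydroxylation in the endoplasmic reticulum were all higher at 1 day. P4ha2, a catalytic subunit of collagen prolyl hydroxylase, had 8.46 CPM in all 7-day and 28.2 CPM in assembloid-side 7-day cells, 28.8 CPM in 1-day assembloids and 0.172 CPM in bladder, the last from 11 UMIs, and a log2 ratio of 7.33 [6.52 to 8.41]. P4ha1, the other catalytic subunit, had 18.5 CPM in all 7-day and 49.9 CPM in assembloid-side 7-day cells, 51.8 CPM in 1-day assembloids and 6.42 CPM in bladder (log2 ratio 3.01 [2.81 to 3.21]). Ero1l, the oxidase that drives disulphide formation, had 118 CPM in all 7-day and 385 CPM in assembloid-side 7-day cells, 391 CPM in 1-day assembloids and 20.7 CPM in bladder (log2 ratio 4.24 [4.14 to 4.33]). All 3 were within 2-fold between the assembloid-side 7-day cells and 1-day cells. P4ha2 was also present in stromal cells, at 67.7 CPM in all 7-day and 69.2 CPM in assembloid-side 7-day cells, 73.7 CPM in 1-day assembloids and 24.4 CPM in bladder, so stromal marker genes were summed in the same urothelial cells: they gave 328 CPM in all 7-day and 292 CPM in assembloid-side 7-day cells, 542 CPM at 1 day and 160 CPM in bladder over 17 markers, none of them at 0 in any library and 1, Kcnj8, at 0 in the assembloid-side cells. Their part in the urothelial P4ha2 level was not tested.

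In glucose uptake and upper glycolysis, 8 of the 10 members could be compared and all 8 were at least 2-fold higher at 1 day. The phosphofructokinase subunit Pfkp had 31.4 CPM in all 7-day and 91.0 CPM in assembloid-side 7-day cells, 101 CPM in 1-day assembloids and 8.79 CPM in bladder, a log2 ratio of 3.52 [3.37 to 3.68]. Aldoc, an aldolase, had 12.4 CPM in all 7-day and 32.5 CPM in assembloid-side 7-day cells, 30.7 CPM in 1-day assembloids and 4.36 CPM in bladder (log2 ratio 2.82 [2.56 to 3.07]). A further phosphofructokinase subunit, Pfkl, had 109 CPM in all 7-day and 285 CPM in assembloid-side 7-day cells, 273 CPM in 1-day assembloids and 44.0 CPM in bladder (log2 ratio 2.64 [2.55 to 2.72]). For the remaining 5 (Slc2a1, the main basal glucose transporter, the hexokinases Hk1 and Hk2, the isomerase Gpi1 and the aldolase Aldoa) the ratios ran from 1.74 for Hk2 to 2.24 for Aldoa. Pfkfb3 and Pfkfb4, which set the level of the allosteric activator of phosphofructokinase, were below the minimum, Pfkfb3 at 13.5 CPM in 1-day assembloids and 2.69 CPM in bladder and Pfkfb4 at 3.70 CPM in 1-day assembloids and 5.44 CPM in bladder.

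Lower glycolysis and lactate export followed. Pgk1, phosphoglycerate kinase, had 326 CPM in all 7-day and 1008 CPM in assembloid-side 7-day cells, 1016 CPM in 1-day assembloids and 76.7 CPM in bladder, a log2 ratio of 3.73 [3.68 to 3.78]. Tpi1, triose phosphate isomerase, had 345 CPM in all 7-day and 889 CPM in assembloid-side 7-day cells, 892 CPM in 1-day assembloids and 141 CPM in bladder (log2 ratio 2.66 [2.62 to 2.71]), and Eno1, enolase, had 188 CPM in all 7-day and 486 CPM in assembloid-side 7-day cells, 485 CPM in 1-day assembloids and 80.3 CPM in bladder (log2 ratio 2.59 [2.53 to 2.66]). Gapdh and Pgam1 had ratios of 2.51 and 2.15. In each of these 5 genes 1-day cells were above bladder cells, with all 7-day cells in between. Pkm, pyruvate kinase, was just under the 2-fold limit with 1404 CPM in 1-day assembloids and 707 CPM in bladder (log2 ratio 0.99 [0.96 to 1.02]). Ldha, the lactate dehydrogenase subunit that favours lactate, had 442 CPM in all 7-day and 1174 CPM in assembloid-side 7-day cells, 1145 CPM in 1-day assembloids and 164 CPM in bladder (log2 ratio 2.80 [2.76 to 2.84]). Slc16a3, the lactate exporter, had 27.0 CPM in all 7-day and 95.1 CPM in assembloid-side 7-day cells, 97.9 CPM in 1-day assembloids and 1.52 CPM in bladder, with a ratio of 6.00 [5.70 to 6.33], the third highest after Ndufa4l2 and P4ha2. Gapdh, Eno1 and other glycolytic genes have processed copies in the mouse genome to which reads may be assigned, so their counts carry that uncertainty.

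The wider pathway moved only in part. Of 38 other hypoxia genes, 21 could be compared in urothelial cells between 1-day assembloids and bladder, with 10 at least 2-fold higher and 3 lower. Over all genes measured in these cells, 11.0% were higher and 7.07% lower. How many of the 21 passed the minimum level at 1 day only, and so could not have been lower, was not counted. Fam162a, a mitochondrial HIF target, had 861 CPM at 1 day and 94.5 CPM in bladder, and Vegfa, the angiogenic factor, 148 CPM and 17.3 CPM. Lox, a collagen cross-linking oxidase, and Car12, a carbonic anhydrase, had the highest log2 ratios, 7.30 and 5.21, from low levels. Hmox1, haem oxygenase, and Mt2, a metallothionein, were lower, each with a log2 ratio of -3.28. Beyond the member enzymes, 4 of 19 further glycolytic genes were measured, and Pgm2 and Bsg were higher while Ldhb, the lactate dehydrogenase subunit that favours pyruvate, was lower (472 CPM at 1 day, 979 CPM in bladder). Of 22 measured genes of pyruvate entry and the citric acid cycle, 20 stayed within 2-fold; Idh3a was higher (log2 ratio 1.03) and Pdk4, another inhibitor of pyruvate dehydrogenase, was lower, at 4.21 CPM in 1-day assembloids and 105 CPM in bladder. Of 9 measured genes of gluconeogenesis and the pentose phosphate pathway, 8 stayed within 2-fold and Fbp2 was lower.

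The urothelial cells compared also differed in maturation genes. Upk3a, a uroplakin of the differentiated urothelial surface, had 3997 CPM in all 7-day and 207 CPM in assembloid-side 7-day cells, 197 CPM in 1-day assembloids and 5095 CPM in bladder, so it was lower in assembloid-side and 1-day cells than in bladder. Genes of the basal layer were similar or higher there. Krt5, a basal keratin gene, had 501 CPM in all 7-day and 607 CPM in assembloid-side 7-day cells, 575 CPM in 1-day assembloids and 518 CPM in bladder. Krt15, another keratin gene, had 1925.0 CPM in all 7-day and 3978 CPM in assembloid-side 7-day cells, 3953 CPM in 1-day assembloids and 1298 CPM in bladder. For Trp63, a transcription factor of basal cells, the values were 82.5 CPM in all 7-day and 177 CPM in assembloid-side 7-day cells, 157 CPM in 1-day assembloids and 66.8 CPM in bladder. Split by Krt5 after thinning, 1-day cells without a Krt5 UMI held 1.35% of their UMIs in the 18 glycolysis genes and those with one 1.03%, against 0.248% and 0.254% in bladder. The higher level at 1 day was thus present in each of these subsets. Split by Upk3a, the 164 cells at 1 day with a UMI of it held 1.28% and the other 1172 held 1.14%, while in bladder 2607 cells with one held 0.251% and 46 without held 0.345%. The part of cell maturation in the difference between libraries was not tested beyond these splits, which were chosen after seeing the data.

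Time in culture could be read only through the mixture. In all 7-day urothelial cells, 16 of 27 measured members were at least 2-fold higher than in bladder and 0 lower, where 1.30% and 0.0395% of all genes were. Of the 27, 7 passed the minimum at 7 days only and could not have been lower; of the 20 that passed in each library, 10 were higher and 10 within 2-fold. Against 1-day cells, 27 of 32 were lower and 1 higher (Hilpda), with 4.19% and 4.31% of all genes called. Of these 32, 5 passed the minimum at 1 day only and could not have been higher. Of the 27 that passed in each library, 22 were lower, 1 higher and 4 within 2-fold. The 614 assembloid-side cells gave another picture: 31 of 33 measured members were higher than in bladder and 1 lower, beside 10.3% and 7.16% of all genes, and 0 of 33 differed 2-fold from 1 day, where 0.0542% of all genes were higher and 0.325% lower. Only 20 of the 33 compared with bladder passed the minimum there. The others passed in assembloid-side cells only and could not have been lower. The log2 ratios of these 33 to 1 day ran from -0.15 for Pfkp to 0.47 for Car9. In the 1474 bladder-side cells 0 of 20 measured members differed 2-fold from bladder, where 0.226% of all genes were higher and 0.0205% lower. The sides were defined by likeness to the other libraries, though without these genes, so a small difference to the nearer library is partly built in.

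The promoters of members with the highest and lowest urothelial ratios are shown because these genes moved together or, in Hilpda, apart. The core motif bound by HIF ends in CGTG preceded by A or G. The letters ACGTG and GCGTG were searched on both strands in RefSeq promoters (build GRCm38.p6, 250 bases before to 50 after a gene's start), which the table held for 30 members. The motif was present in 25 of the 30 (83.3%), in 43.8% of all 27025 promoters of the table, and in 68.7% of the 5570 promoters whose GC content lay within 5 points of the members' median of 65.0%. At least 2 matches, where matches may overlap, stood in 63.3% of the members' promoters, 20.8% of all and 38.9% of those of like GC content. Ldha had the most, 7, and Bnip3 had 5. Of the 4 members with the highest ratios that have an entry, P4ha2, Slc16a3, Egln3 and Bnip3 lie at chr11:54100674-54100973, chr11:120948817-120949116, chr12:54203825-54204124 (minus strand) and chr7:138909457-138909756 (minus strand). The lowest measured ratios belonged to Hilpda, at chr6:29272238-29272537, and Hif1a, at chr12:73907617-73907916, both on the plus strand like P4ha2 and Slc16a3. Matches are in capitals (CACGT and CACGC are matches on the other strand), and a match is not a bound site.
P4ha2: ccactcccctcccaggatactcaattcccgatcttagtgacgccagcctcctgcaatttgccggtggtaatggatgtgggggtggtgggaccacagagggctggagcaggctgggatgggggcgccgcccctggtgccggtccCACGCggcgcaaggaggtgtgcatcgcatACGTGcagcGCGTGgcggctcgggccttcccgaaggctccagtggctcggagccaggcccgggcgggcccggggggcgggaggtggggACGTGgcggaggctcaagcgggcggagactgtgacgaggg
Slc16a3: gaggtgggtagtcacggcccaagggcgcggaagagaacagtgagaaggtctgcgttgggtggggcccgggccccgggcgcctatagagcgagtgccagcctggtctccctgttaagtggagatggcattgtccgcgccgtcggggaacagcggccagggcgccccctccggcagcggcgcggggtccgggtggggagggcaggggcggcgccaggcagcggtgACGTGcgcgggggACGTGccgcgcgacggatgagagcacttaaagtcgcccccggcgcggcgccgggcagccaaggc
Egln3: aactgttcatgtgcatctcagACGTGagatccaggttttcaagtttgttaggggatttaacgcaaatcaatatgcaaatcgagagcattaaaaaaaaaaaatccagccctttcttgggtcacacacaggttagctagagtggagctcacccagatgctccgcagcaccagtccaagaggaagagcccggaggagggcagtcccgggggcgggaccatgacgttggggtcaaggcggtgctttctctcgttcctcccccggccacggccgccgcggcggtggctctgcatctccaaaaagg
Bnip3: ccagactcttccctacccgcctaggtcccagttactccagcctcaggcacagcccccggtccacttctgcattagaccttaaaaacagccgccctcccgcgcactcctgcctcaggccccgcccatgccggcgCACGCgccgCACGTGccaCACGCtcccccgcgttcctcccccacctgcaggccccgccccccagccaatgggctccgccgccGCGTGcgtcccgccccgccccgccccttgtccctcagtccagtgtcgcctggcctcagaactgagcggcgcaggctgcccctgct
Hilpda: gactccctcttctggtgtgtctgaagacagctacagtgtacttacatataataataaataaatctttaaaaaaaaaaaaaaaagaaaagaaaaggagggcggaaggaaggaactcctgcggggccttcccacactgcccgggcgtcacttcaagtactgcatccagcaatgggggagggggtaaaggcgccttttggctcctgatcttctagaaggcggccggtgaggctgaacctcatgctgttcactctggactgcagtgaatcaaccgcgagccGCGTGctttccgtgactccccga
Hif1a: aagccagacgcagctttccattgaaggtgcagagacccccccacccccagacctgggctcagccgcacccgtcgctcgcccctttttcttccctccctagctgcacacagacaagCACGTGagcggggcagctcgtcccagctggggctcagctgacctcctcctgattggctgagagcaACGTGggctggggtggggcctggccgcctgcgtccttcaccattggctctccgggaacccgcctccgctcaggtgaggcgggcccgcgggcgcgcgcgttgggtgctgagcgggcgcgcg

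P4ha2 held 4 matches, Slc16a3 2, Egln3 1, Bnip3 5, Hilpda 1 and Hif1a 3, so the count of matches did not separate the highest ratios from the lowest. No match lay in these windows for Hk1, Gpi1, Aldoa, Tpi1 and Pkm, of which only Pkm was within 2-fold in urothelial cells. The promoters of Epas1, Bhlhe40, Ndufa4l2, Bnip3l, Ndrg1 and Ero1l were not in the table.

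In stromal cells the glycolysis genes took a higher share of UMIs in assembloids than in bladder, and the hypoxia genes a lower one. The 18 glycolysis and lactate genes made up 0.724% of stromal UMIs in all 7-day and 0.742% in assembloid-side 7-day cells, 0.744% in 1-day assembloids and 0.261% in bladder. The 18 hypoxia genes made up 0.0917%, 0.0904%, 0.0784% and 0.123% in the same order. Between 1-day assembloids and bladder, 9 of 15 measured glycolysis genes were at least 2-fold higher and 0 lower, whereas 2 of 15 hypoxia genes (Ero1l and P4ha2) were higher and 5 lower; of all stromal genes 17.0% were higher and 21.7% lower. The counts for hypoxia genes thus lie near or only somewhat above the background. All 5 that were lower passed the minimum level in bladder only and could not have been called higher. Of the 23 members that passed in each library, 10 were higher, 0 lower and 13 within 2-fold.

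The highest stromal ratios were in lower glycolysis and lactate export. Eno1 had 734 CPM in all 7-day and 759 CPM in assembloid-side 7-day cells, 717 CPM in 1-day assembloids and 102 CPM in bladder (log2 ratio of 1 day over bladder 2.82 [2.74 to 2.90]). Pgk1 had 509 CPM in all 7-day and 525 CPM in assembloid-side 7-day cells, 511 CPM in 1-day assembloids and 98.9 CPM in bladder (log2 ratio 2.37 [2.29 to 2.45]). Slc16a3 had 59.5 CPM in all 7-day and 60.9 CPM in assembloid-side 7-day cells, 72.2 CPM in 1-day assembloids and 17.5 CPM in bladder (log2 ratio 2.04 [1.86 to 2.24]), and Pgam1 had a ratio of 1.83. At the other end stood Ndufa4l2, with 30.9 CPM in all 7-day and 20.8 CPM in assembloid-side 7-day cells, 12.0 CPM in 1-day assembloids and 252 CPM in bladder, a log2 ratio of -4.39 [-4.49 to -4.30]. Epas1 had 21.5 CPM in all 7-day and 16.2 CPM in assembloid-side 7-day cells, 8.44 CPM in 1-day assembloids and 169 CPM in bladder (-4.32 [-4.43 to -4.21]). Ndrg1 had 10.0 CPM in all 7-day and 7.37 CPM in assembloid-side 7-day cells, 7.47 CPM in 1-day assembloids and 73.2 CPM in bladder (-3.29 [-3.43 to -3.16]), and Bhlhe40 had 19.9 CPM in all 7-day and 17.8 CPM in assembloid-side 7-day cells, 16.4 CPM in 1-day assembloids and 90.6 CPM in bladder (-2.47 [-2.57 to -2.36]). All 4 were highest in bladder, in contrast to the glycolytic genes, which were low there.

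Ndufa4l2 and Epas1 are also expressed by pericytes, so cells with at least 2 of 5 pericyte markers were viewed alone: 568 cells at 7 days, 206 at 1 day and 696 in bladder. In this subset Ndufa4l2 had 139 CPM in all 7-day and 91.6 CPM in assembloid-side 7-day cells, 42.5 CPM in 1-day assembloids and 625 CPM in bladder and Epas1 had 66.6 CPM in all 7-day and 36.7 CPM in assembloid-side 7-day cells, 19.3 CPM in 1-day assembloids and 448 CPM in bladder. Their levels were lower in assembloids among the cells that met this rule too, by log2 ratios of -3.88 [-4.11 to -3.66] and -4.53 [-4.88 to -4.22] at 1 day. A deeper cell meets the rule more easily. Median depths in the subset were 8520 UMIs at 7 days, 20089.5 UMIs at 1 day and 4505.5 UMIs in bladder. The subset need not hold the same cell type in each library, which was not tested. Without these cells the stromal sum of the hypoxia genes was 0.0887% in all 7-day and 0.0881% in assembloid-side 7-day cells, 0.0778% at 1 day and 0.0981% in bladder. Adm was the stromal member that differed most between assembloid-side 7-day and 1-day cells: 128.5 CPM in all 7-day cells and 132 CPM in the assembloid-side ones, against 59.2 CPM at 1 day, with 41.6 CPM in bladder. It was the only 1 of 26 measured members to differ 2-fold between assembloid-side cells and 1-day cells (log2 ratio 1.15 [1.11 to 1.20]), where 0.827% of all genes were higher and 0.0719% lower.

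**Figure D2:**
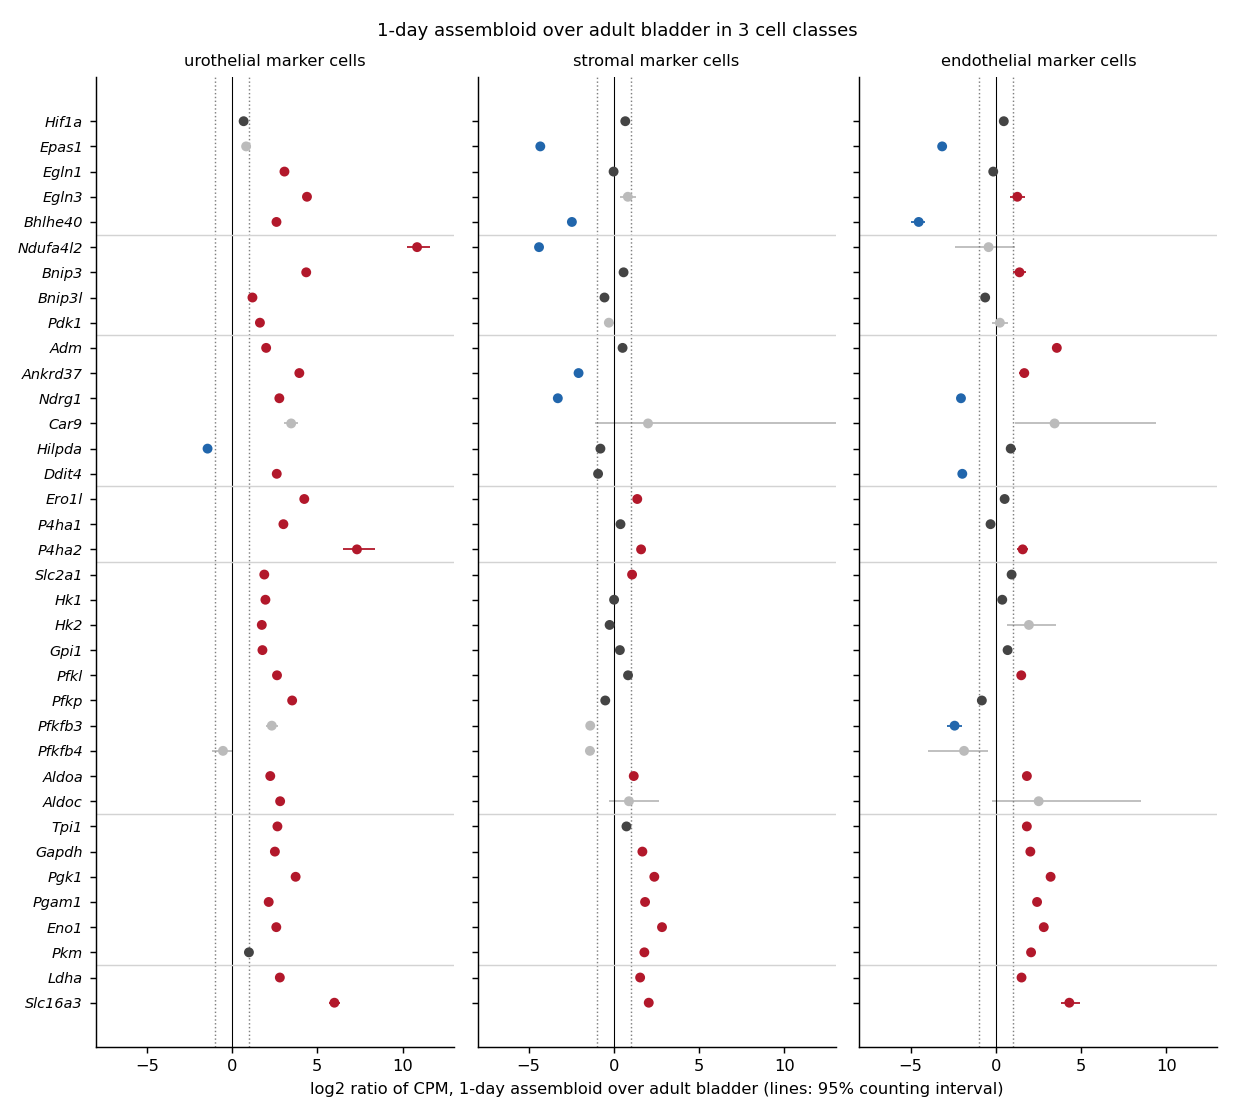
Log2 ratio of CPM in 1-day assembloids over bladder for the 36 genes in urothelial, stromal and endothelial marker cells, with 95% counting intervals (a line that reaches the edge has no finite bound) and dotted lines at 2-fold. Red points are at least 2-fold higher, blue points at least 2-fold lower, dark points within 2-fold, and light grey points below 20 CPM in each library; the urothelial panel holds 29 red points and 1 blue point, the stromal panel 11 and 5, the endothelial panel 15 and 5.

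Endothelial cells resembled stromal cells in glycolysis and were mixed in the hypoxia genes. The 18 glycolysis genes made up 0.771% of endothelial UMIs in all 7-day and 1.04% in assembloid-side 7-day cells, 0.839% in 1-day assembloids and 0.230% in bladder, and 10 of 15 measured were at least 2-fold higher at 1 day than in bladder and 1 lower. Of the hypoxia genes, 5 of 15 measured were higher and 4 lower, beside 22.7% and 22.0% of all endothelial genes. Of the 30 members measured, 4 passed the minimum at 1 day only and could not have been lower. A further 2 passed in bladder only and could not have been higher. The 24 that passed in each library gave 11 higher, 3 lower and 10 within 2-fold. Slc16a3 had 89.8 CPM in all 7-day and 133 CPM in assembloid-side 7-day cells, 101 CPM in 1-day assembloids and 5.02 CPM in bladder (log2 ratio 4.31 [3.80 to 4.91]). Adm had 277 CPM in all 7-day and 403 CPM in assembloid-side 7-day cells, 648 CPM in 1-day assembloids and 54.2 CPM in bladder (log2 ratio 3.58 [3.41 to 3.75]), and Pgk1 had 605 CPM in all 7-day and 874 CPM in assembloid-side 7-day cells, 841 CPM in 1-day assembloids and 90.6 CPM in bladder (log2 ratio 3.21 [3.09 to 3.35]); Eno1 had a ratio of 2.81. These 4 were the highest ratios of the class, and in each the bladder value was the lowest of the 3 libraries.

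Bhlhe40 was at the other end of the endothelial ratios, with 93.6 CPM in all 7-day and 17.9 CPM in assembloid-side 7-day cells, 13.6 CPM in 1-day assembloids and 316 CPM in bladder (log2 ratio -4.52 [-4.96 to -4.15]). Epas1, whose product is the characteristic HIF subunit of endothelium, had 285 CPM in all 7-day and 132 CPM in assembloid-side 7-day cells, 70.3 CPM in 1-day assembloids and 624 CPM in bladder (-3.15 [-3.33 to -2.97]). Pfkfb3, a glycolytic activator used by sprouting vessels, had 27.2 CPM in all 7-day and 12.6 CPM in assembloid-side 7-day cells, 12.6 CPM in 1-day assembloids and 68.0 CPM in bladder (-2.42 [-2.88 to -2.01]), and Ndrg1 had 279 CPM in all 7-day and 203 CPM in assembloid-side 7-day cells, 115 CPM in 1-day assembloids and 477 CPM in bladder (-2.04 [-2.19 to -1.90]). The whole 7-day values of these 4 lie between 1-day and bladder. Ankrd37 was the only member to differ 2-fold between assembloid-side 7-day and 1-day endothelial cells, at 173 CPM and 77.4 CPM (log2 ratio 1.16 [0.96 to 1.37], with 1.28% of all genes higher and 0.954% lower).

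Against bladder, all 7-day stromal cells had 11 of 30 measured members at least 2-fold higher and 5 lower, where 15.2% and 19.4% of all genes were, and the assembloid-side stromal cells gave the same 2 counts (16.0% and 20.2% of all genes). Of the 25 members that passed the minimum in all 7-day stromal cells and in bladder, 10 were higher, 2 lower and 13 within 2-fold. Bladder-side stromal cells had 0 of 29 higher and 0 lower, beside 0.0333% and 0.233%. In endothelial cells 15 of 31 measured members were higher in the whole 7-day library than in bladder and 4 lower (12.5% and 10.1% of all genes), and in the assembloid-side cells 16 were higher and 5 lower (20.4% and 20.6%). Of the 31 in the whole library, 5 passed the minimum at 7 days only and could not have been lower. The 26 that passed in each library gave 11 higher, 4 lower and 11 within 2-fold. The 4 lower calls in the whole library depended on the scaling of cells: 1 was left after thinning to 2500 UMIs, and 0 with the mean of single-cell CPM. Bladder-side endothelial cells had 0 of 26 higher than bladder and 1 lower, Adm, at the 2-fold limit (0.182% and 0.380% of all genes). Between all 7-day cells and 1-day cells, Epas1, Ndufa4l2 and Adm were higher in stromal cells (1.69% of all genes were, and 0.0711% were lower), and Epas1, Bhlhe40, Ndrg1 and Pfkfb3 were higher and Adm lower in endothelial cells (8.38% higher and 1.88% lower among all genes). Of these, only stromal Adm also differed 2-fold between the assembloid-side and 1-day cells.

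Immediate early and heat shock genes, which respond to dissociation among other stimuli, were lower at 1 day in stromal and endothelial cells. Some hypoxia genes went the same way there, while most of the members called were higher. All 12 genes of that list were at least 2-fold lower at 1 day than in bladder in stromal cells (median log2 ratio -4.47) and in endothelial cells (-3.85), while in urothelial cells 10 of 12 stayed within 2-fold (median -0.59). Among all genes, 21.7% of stromal, 22.0% of endothelial and 7.07% of urothelial ones were at least 2-fold lower at 1 day. Fos had 32.4 CPM in 1-day stromal cells and 3367 CPM in bladder stromal cells. Their part in the lower levels of Bhlhe40, Ndrg1, Ddit4 and Epas1 was not tested. Of the other hypoxia genes, 6 of 26 measured were higher and 9 lower in stromal cells, and 7 of 25 higher and 7 lower in endothelial cells, shares that lie near or somewhat above those of all genes. Genes of the pentose phosphate pathway and gluconeogenesis were higher together with glycolysis in these classes. At 1 day 5 of 6 measured in stromal cells and 6 of 7 in endothelial cells were at least 2-fold higher, with 0 lower in either. In urothelial cells 0 of 9 were higher. Of all genes, 17.0% of stromal, 22.7% of endothelial and 11.0% of urothelial ones were higher. How many of the listed genes passed the minimum level at 1 day only, and so could not have been lower, was not counted. Pgd, a pentose phosphate dehydrogenase, had 91.0 CPM at 1 day and 28.1 CPM in bladder in stromal cells, and 94.0 CPM and 20.6 CPM in endothelial cells.

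Glial marker cells were too few for single genes of low level. At the gate used for the other classes they numbered 33 (7-day), 89 (1-day) and 40 (bladder), and at a looser gate, 60% of marker UMIs in place of 80%, 97, 410 and 121. Among all genes compared between 1 day and bladder, 23.4% were at least 2-fold higher and 25.0% lower at the main gate, so the 7 higher and 7 lower of 26 measured members stood at the background. With a 95% gate, 18 of 24 were higher and 1 lower, so these counts depend on the gate. Counts near the background were also found at 7 days over bladder, with 7 higher and 6 lower of 26 (23.9% and 24.3% of all genes), and at 7 days over 1 day, with 3 higher and 2 lower of 24 (12.5% and 8.71%). At the looser gate the 18 hypoxia genes made up 0.0708% of UMIs at 7 days, 0.0675% at 1 day and 0.181% in bladder, and the 18 glycolysis genes 0.432%, 0.396% and 0.235%. Ndrg1, whose loss causes a neuropathy of myelin in mouse and man, carried much of the first sum in bladder. It had 134 CPM in 7-day assembloids, 38.7 CPM in 1-day assembloids and 763 CPM in bladder. These came from 81 of 427, 109 of 1903 and 273 of 646 UMIs of the 18 hypoxia genes. Gapdh had 930.1, 864 and 296 CPM in the same order. The sum of glial markers in the main-gate cells was itself 12621 CPM at 7 days, 9581 CPM at 1 day and 40009.9 CPM in bladder.

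Set side by side, the classes lay closer together in glycolysis genes in bladder than in the assembloids. The 18 glycolysis genes lay between 0.230% and 0.261% of UMIs in the 4 classes of bladder, where endothelial and stromal cells still differed beyond their counting intervals, and at 1 day they ran from 0.401% in glial through 0.744% in stromal and 0.839% in endothelial to 1.16% in urothelial cells. For the 18 hypoxia genes the order was endothelial (0.238%), glial (0.218%), urothelial (0.132%) and stromal (0.123%) in bladder, whereas at 1 day it was urothelial (0.353%), endothelial (0.174%), stromal (0.0784%) and glial (0.0671%). Endothelial and glial cells in bladder did not differ beyond their counting intervals. Myeloid cells, of which there were only 75 (7-day), 82 (1-day) and 49 (bladder), held 0.815% of their UMIs in the glycolysis genes at 7 days, 0.775% at 1 day and 0.336% in bladder. The pericyte subset of bladder held 0.331% and the other stromal cells of bladder 0.238%. At 1 day, 8 members were at least 2-fold above bladder in urothelial, stromal and endothelial cells alike: P4ha2, Aldoa, Gapdh, Pgk1, Pgam1, Eno1, Ldha and Slc16a3, of which 7 are glycolysis or lactate genes. A further 13 were called higher in urothelial cells and in neither of the other 2 classes. Among these, Pdk1 and Aldoc were below the minimum level in stromal and endothelial cells, and Ndufa4l2 and Hk2 in endothelial cells. A missing call there is thus no sign of a difference between classes. Bhlhe40, Ndufa4l2, Ankrd37, Ndrg1 and Ddit4, all hypoxia genes, were higher in urothelial cells and lower in stromal or endothelial cells. The share of all genes with such patterns across classes was not computed, so these counts are not read as particular to the members. In single classes, 11.0% of all urothelial, 17.0% of stromal and 22.7% of endothelial genes were higher at 1 day. The shares of lower genes were 7.07%, 21.7% and 22.0% in the same order.

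**Figure D3:**
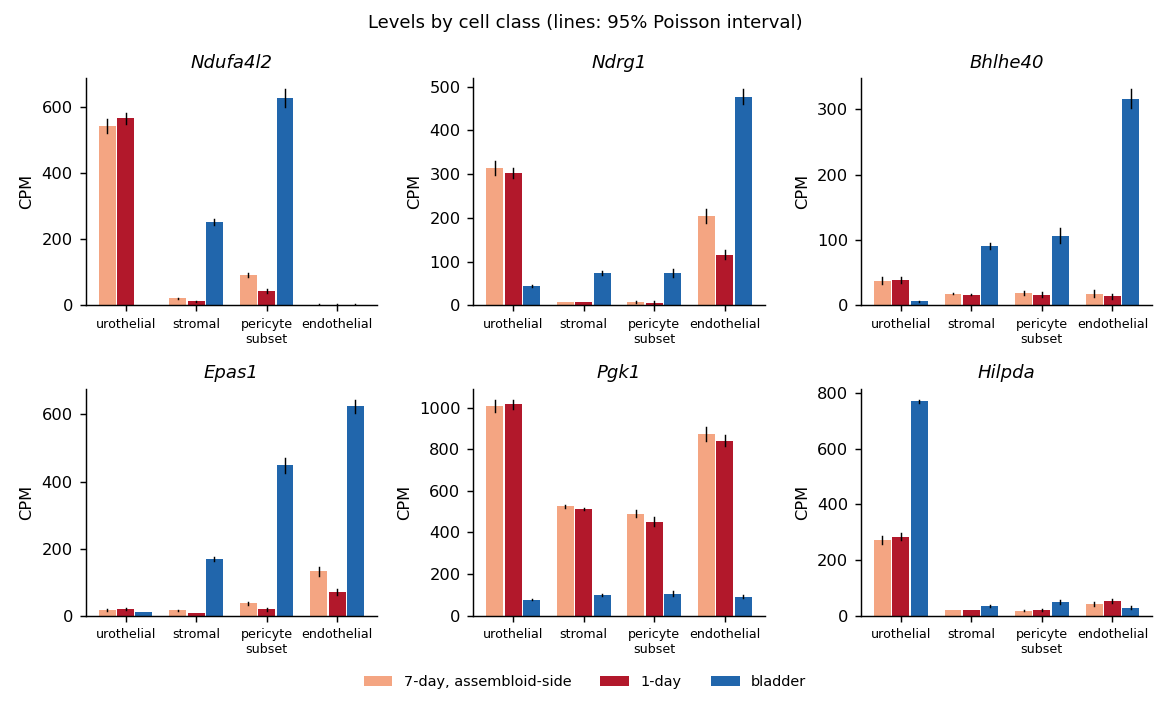
CPM of 6 genes in urothelial, stromal, pericyte-subset and endothelial marker cells, for the assembloid-side 7-day cells, 1-day assembloids and bladder (left to right in each group; lines are 95% Poisson intervals). Ndufa4l2 is high in assembloid urothelium and in the pericyte subset of bladder, and Ndrg1 in assembloid urothelium and bladder endothelium; Pgk1 is higher in assembloids in all 4 classes, and Hilpda reaches 770.3 CPM in bladder urothelium.

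Single urothelial cells of the assembloid libraries varied widely in the summed level. Each cell was thinned to 2500 UMIs, which left 2032 cells at 7 days, 1336 at 1 day and 2653 in bladder and dropped 79, 92 and 38 shallower ones. The 36 genes then took a median of 12 UMIs per cell in all 7-day cells (5th to 95th percentile 5 to 57), 36 in assembloid-side 7-day cells (15 to 74), 37 at 1 day (14 to 72) and 9 in bladder (4 to 17). Counting alone gives a variance equal to the mean: the ratio of variance to mean was 15.6 in all 7-day cells, a mixture of both sides, 8.46 in assembloid-side and 1.54 in bladder-side 7-day cells, 8.22 at 1 day and 1.56 in bladder. The spread beyond counting, as a coefficient of variation, was 88.8% in all 7-day cells, 43.5% in assembloid-side and 23.5% in bladder-side 7-day cells, 43.1% at 1 day and 24.1% in bladder. The assembloid-side cells thus spread about as widely as the 1-day cells. At 1 day the cells formed 1 broad range with no gap, while all 7-day cells showed a peak at the bladder level and a long tail. Above 17 UMIs, the 95th percentile of bladder cells, lay 29.6% of 7-day cells [27.6 to 31.7], 90.04% of 1-day cells [88.3 to 91.6] and 3.51% of bladder cells [2.84 to 4.28]. Within the 7-day library the share was 91.0% of assembloid-side cells and 3.93% of bladder-side cells. This threshold is a range and not a cell type: 173 (7-day), 116 (1-day) and 232 (bladder) cells lay within 2 UMIs of it.

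**Figure D4:**
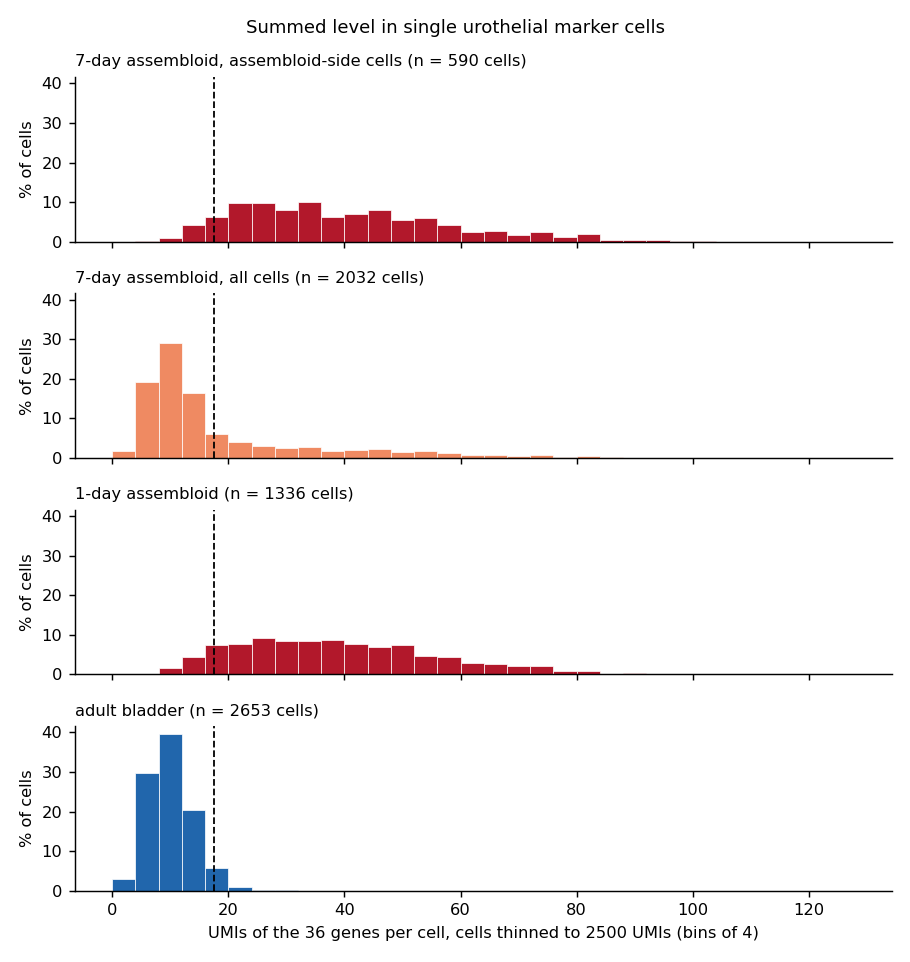
Distribution of the summed UMIs of the 36 genes in urothelial marker cells thinned to 2500 UMIs, as the percentage of cells per bin of 4 UMIs, for assembloid-side 7-day cells, all 7-day cells, 1-day assembloids and bladder; the dashed line marks the bladder 95th percentile, 17 UMIs. The assembloid-side and 1-day cells have medians of 36 and 37 UMIs, and the bladder cells one of 9.

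Across 1-day cells, and across assembloid-side 7-day cells, each from a pool of 3 assembloids, the hypoxia and glycolysis genes varied together. In bladder cells and in bladder-side 7-day cells the correlation was weak or absent and rests on few UMIs. Between the thinned sums of the 18 hypoxia and 18 glycolysis genes, the Pearson correlation was 0.674 over 1336 1-day cells and 0.063 over 2653 bladder cells. At 7 days it was 0.722 over 590 assembloid-side cells and -0.014 over 1424 bladder-side cells. The value of 0.723 over all 2032 cells at 7 days includes the difference in level between the sides. The correlations are descriptions of 1 library each, whose cells share a library and a depth. Counts of the hypoxia genes were low in bladder: without Hilpda the hypoxia sum averaged 8.49 UMIs at 1 day and 1.40 UMIs in bladder, and the correlations were 0.669 and 0.068. With 10000 UMIs for each cell and without Hilpda they were 0.775 over 92 cells at 1 day and 0.117 over 2414 cells in bladder. The hypoxia sum then averaged 5.49 UMIs in bladder. At 7 days they were 0.841 over 156 assembloid-side and 0.092 over 576 bladder-side cells, and 0.890 over all 738 cells. At 1 day the members most correlated with the sum of the other 35 were Gapdh (0.627), Ero1l (0.558), Aldoa (0.519), Pgk1 (0.492) and Ndufa4l2 (0.488), while Hif1a (-0.116), Epas1 (-0.049) and Ddit4 (0.005) were not positively related or hardly so. After thinning, 36.2% of 1-day cells held a UMI of Hif1a, 4.79% of Epas1 and 14.3% of Ddit4, against 98.1% for Gapdh. Low counts weaken a correlation, and their part in this order was not tested.

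To read this on genes outside the ranking, 1-day urothelial cells were ranked and put into 4 groups of 334 by the share of the 18 hypoxia genes. From the lowest to the highest group the glycolysis genes made up 0.732%, 0.998%, 1.32% and 1.70% of UMIs, and in bladder, ranked in the same way, 0.251%, 0.248%, 0.2495% and 0.258%. In the assembloid-side 7-day cells they made up 0.706%, 1.01%, 1.33% and 1.76%. Of the 17 glycolysis genes measured at 1 day, 12 were at least 2-fold higher in the highest than in the lowest group and 0 lower, where 2.76% of all genes measured were higher and 1.92% lower. In the assembloid-side 7-day cells 14 of 17 were higher and 0 lower (4.20% and 2.26% of all genes), and in bladder 2 of 13, Slc2a1 and Hk2 (5.52% and 1.57% of all genes). A gene was measured here where the highest or the lowest group had at least 20 CPM. One that passed in the highest group only could not have been lower, and the number that passed in each group was not counted. Pfkp had 41.8, 67.3, 121 and 186 CPM from the lowest to the highest group, and Gapdh 1550.2, 2198, 3090.4 and 4340.2 CPM. The range within 1 library is wide: the lowest 1-day group still held 0.732% of its UMIs in glycolysis genes, above every bladder group. Pfkl and Hk1 changed least among those that stayed within 2-fold, by log2 ratios of 0.62 and 0.79. Hilpda, although lower at 1 day than in bladder, followed the ranking it is part of in each library, with 132, 251, 313 and 471 CPM at 1 day and 138, 369.9, 822 and 1622 CPM in bladder. As the source of 56.4% of the hypoxia UMIs in bladder, it weighed most in the ranking there.

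**Figure D5:**
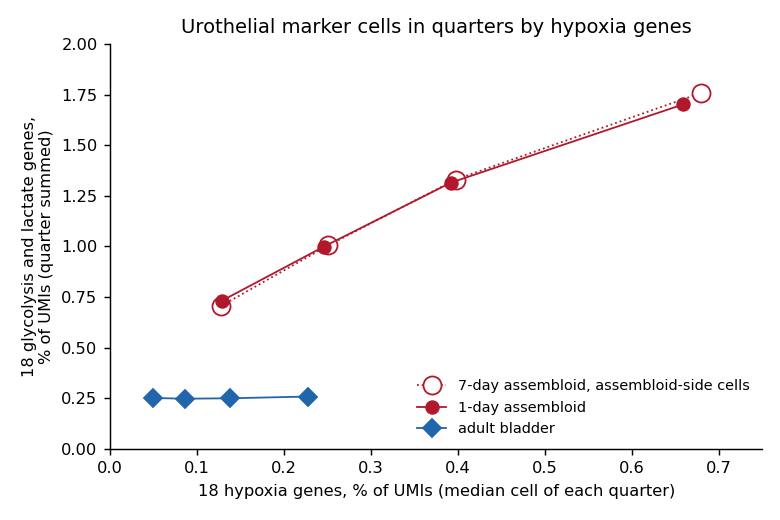
Share of UMIs in the 18 glycolysis and lactate genes (vertical axis) against the median share in the 18 hypoxia genes (horizontal axis) for 4 equal groups of urothelial marker cells ranked by the hypoxia genes, in assembloid-side 7-day cells, 1-day assembloids and bladder. Glycolysis climbs to 1.76% in the assembloid-side cells and 1.70% at 1 day and stays between 0.248% and 0.258% in the 4 bladder groups.

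Other genes changed along the same ranking at 1 day. Of 18 measured genes among the other hypoxia targets, 7 were at least 2-fold higher in the highest group and 0 lower (2.76% and 1.92% of all genes). The same limit on lower calls holds for them. The 7 included Vegfa, with 72.5, 102, 176 and 253 CPM, and Fam162a, with 427, 668, 1059.6 and 1406 CPM. Of 21 measured genes of pyruvate entry and the citric acid cycle 20 stayed within 2-fold and Idh3g was lower. The basal keratin genes declined: Krt5 had 806, 645, 558 and 237 CPM and Krt15 5395, 4553, 3474 and 2026 CPM. Cell-cycle genes were nearly absent from the highest group, Top2a with 56.7, 23.9, 13.01 and 1.14 CPM and Mki67 with 45.1, 10.96, 14.7 and 1.71 CPM. Fxyd4, a regulator of the sodium pump, had 153, 381, 789 and 1124 CPM, and Ghrh, growth hormone-releasing hormone, 1.39, 26.4, 134 and 559.7 CPM. Krt5, Krt15, Top2a, Mki67, Fxyd4 and Ghrh were chosen with earlier results of these cells known and are no independent support. Median depth ran from 5251.5 UMIs in the lowest group to 4580.5 in the highest, and the median mitochondrial share from 6.61% to 3.94%; their part in the ranking was not tested.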

How the data were processed

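Single cells of 7-day assembloids, 1-day assembloids and bladder were captured from polyA RNA, with 1 library for each group. The deposited matrices hold counts, whole numbers of UMIs per gene and barcode with no normalization, in 10x matrix files made with Cell Ranger 3.1.0, per the file headers; the submitters' processing notes name the builds GRCh38, mm10 and hg38. Mouse barcodes (at least 90% mouse UMIs) with at least 500 genes and under 20% mitochondrial UMIs were kept. Scrublet, run through scanpy 1.11.5 on each library, removed 202 (7-day), 280 (1-day) and 238 (bladder) cells called doublets.

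A cell was given a class where at least 80% of the UMIs of 7 marker lists, and at least 3 distinct markers, belonged to it. UMIs were summed over the cells of a class in a library and divided by the class total. Log2 ratios of CPM used an offset of 0.5 UMI, intervals are exact (Poisson for a level, conditional binomial for a ratio, Clopper-Pearson for a share), and a gene was compared where the higher library had at least 20 CPM. The calculation was tested on simulated data. A fold of 2 is a threshold of size, not a test, and all p-values are left out because no group has a second library. Assembloid-side and bladder-side 7-day cells were found from 30 nearest cells in 30 principal components of 2000 variable genes. The members and the pathway lists were left out first, except the immediate early and heat shock list, which was not. Aldoa is on 2 feature rows, which were summed.

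The 36 members, the marker and pathway lists and the role groups were chosen with earlier results of these data known. Every member is accounted for. Values are given in full for the up to 3 members of each role with the highest ratios at 1 day in urothelial cells and any that went against its role, and in other classes for up to 4 members with the highest and 4 with the lowest ratios; values beyond that rule were chosen after they were seen. Alternatives tried were other class gates, gene and mitochondrial limits, level minimums, offsets, thinning depths, barcodes shared between libraries left out, and the sides of the 7-day library. Cell numbers and depths limit the glial values most. Python 3.11.15, numpy 2.4.6, scipy 1.17.1 and pandas 2.3.3 were used.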

Additional observations from a re-analysis of the deposited data

Results flagged for a closer look

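Some hypoxia genes had opposite ratios of 1-day assembloids over bladder in different cell classes, at least 2-fold in each. The differences between the classes were not tested. The share of all genes with opposite ratios was not computed, so the pattern is not read as particular to these genes. Bhlhe40 had a log2 ratio of 2.61 in urothelial cells, -2.47 in stromal cells and -4.52 in endothelial cells. Ndufa4l2 had 10.85 in urothelial cells and -4.39 in stromal cells, and Ankrd37 had 3.95 and -2.08 in the same classes. Ndrg1 had 2.77 in urothelial cells, -3.29 in stromal cells and -2.04 in endothelial cells. Ddit4 had 2.62 in urothelial cells and -1.97 in endothelial cells.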

How the results depend on the processing

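Of 197 recomputed values, 157 kept within their limits (a count of members within 1.5 times, a share within its interval) and 40 moved further. A change of direction was not scored. The causes were not tested unless the setting's construction shows them. With the minimum raised to 100 CPM, so that fewer members are compared, the members at least 2-fold higher numbered 19 in place of 29 in urothelial cells and 7 in place of 11 in stromal cells at 1 day over bladder, 10 in place of 16 in urothelial cells at 7 days over bladder, and 2 in place of 4 (endothelial) and 1 in place of 3 (stromal) at 7 days over 1 day.
With the assembloid-side cells alone, the counts at 7 days over bladder were 31 in place of 16 in urothelial cells, and at 7 days over 1 day 0 in place of 1 (urothelial), 1 in place of 3 (stromal) and 1 in place of 4 (endothelial). With the bladder-side cells alone, the counts over bladder were 0 in place of 16 (urothelial), 0 in place of 11 (stromal) and 0 in place of 15 (endothelial), and 5 in place of 3 in stromal cells over 1 day. Without pericyte-marker cells 1 stromal member was higher at 7 days than at 1 day, and with the mean of cell CPM 0 urothelial members were.
Glial counts were the least stable. At 1 day over bladder 7 members were higher, and 18 with the 95% gate, 3 at 100 CPM and 2 with an offset of 5. At 7 days over bladder 7 were higher, and 3 with bladder-side cells, 4 with the mean of cell CPM, 4 at 100 CPM and 3 with an offset of 5. At 7 days over 1 day 3 were higher, and 7 with bladder-side cells, 6 after thinning, 1 with the 95% gate, 0 at 100 CPM and 8 with no minimum. The offset of 5 also turned the sign of the median log2 ratio over bladder. It was 0.35 in the main setting and -0.29 with that offset at 1 day, and 0.14 and -0.49 at 7 days.
The share of urothelial cells above the bladder 95th percentile moves in steps, because that percentile is a whole number of UMIs (16 or 17 in most settings). For 1-day cells it was 90.04%, and 94.8% with the glycolysis members alone, 45.4% with the hypoxia members alone, 92.6% with at least 1000 genes, 95.4% at 5000 UMIs, 93.5% with the 60% gate, 87.4% without Gapdh, 93.5% under 10% mitochondrial UMIs and 92.5% without shared barcodes. For 7-day cells it was 29.6%, and 91.0% on the assembloid side, 3.93% on the bladder side, 17.0% with the hypoxia members alone, 33.5% at 5000 UMIs and 33.3% under 10% mitochondrial UMIs. No paired analysis was possible because each group has 1 library, and for the same reason no replicate could be left out.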
